A study of Solanum lycopersicum with 12 samples.

Results

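The comparison set young leaves of salt-irrigated tomato plants (Solanum lycopersicum, genotype WT in the labels) that had been sprayed with PSI-475, a biostimulant, against young leaves of plants that had been sprayed with water. PSI-475 leaves and water leaves gave 3 libraries each, out of 12 libraries in the series, the other 6 being roots of the same treatments. PSI-475 was sprayed at 2.5 mL per L on plants 65 days old, 1 day before saline irrigation began, and again 27 days into it, with water sprayed on the controls. All plants in both groups received 50 mM NaCl (5.8 dS per m), so salinity was shared by every library and the comparison is of spray against water under salt. Leaves were taken at 127 days of age, 2 h after the light period had ended. Whether each replicate is a plant of its own is not in the labels, and p-values here reflect only how much the libraries of a group vary, part of which may be technical. Levels are the authors' FPKM, which are fragments scaled by locus length and by library total. The rule kept every locus that averaged 1 FPKM or more in the 6 leaf libraries, and 18405 of 35976 loci met it. Of the rest, 9909 were at 0 in all 6 leaf libraries and 7662 were above 0 but under the limit. The nearest means on either side of that limit were 1.0006 and 0.99964 FPKM, and 248 loci lay within 10% above it and 278 within 10% below it.

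Salt reaches leaves as an osmotic load and as sodium carried in the transpiration stream. Leaves of salt-treated tomato are known to close their stomata, to lower photosynthesis and growth, and to raise abscisic acid signalling, ion compartmentation, compatible solutes and antioxidant enzymes. Biostimulants are sprayed to ease such losses without acting as fertilizer or pesticide. Which of these functions the loci below belong to was not evaluated here: the deposited table gives locus identifiers alone, and 0 of them matched the RefSeq gene table used (assembly SLM_r2.1). The 16 lists of genes by function and the marker genes for leaf, root and flower or fruit were therefore not evaluated, the leaf label was not checked against named markers, and no sequence is shown. The loci are described by size of change, level, position and behaviour in root, and 4 are named. In bulk leaf samples, fewer cells of a type and less RNA per cell cannot be told apart.

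The 6 leaf libraries held 18190465 to 22993130 fragments. Pearson correlations across tested loci were 0.989 to 0.992 within PSI-475 leaves, 0.979 to 0.99 within water leaves and 0.955 to 0.965 between the groups. The third water library stood somewhat apart, at 0.979 and 0.982 with the other two, so counts are also given without it. Replicates differed by more than counting error in every pair: chi-square per degree of freedom ran from 5.27 to 16.5.

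Among changes of 2-fold or more in young leaf rises outnumbered falls, while most calls of any size were falls on the deposited scale. In limma on log2(FPKM + 1), with Benjamini-Hochberg adjustment over all tested loci, 32.3% of loci were called at an adjusted p under 0.05, with 2481 rises (13.5%) and 3464 falls (18.8%). Rises made up 41.7% of calls as deposited, 56.5% with median-of-ratios scaling, 49% with quantile normalization and 35.5% when rescaled to TPM. At 1.5-fold or more there were 1349 rises and 1054 falls. At 2-fold there were 478 rises and 211 falls, which are 2.6% and 1.15% of the loci tested. Without the third water library there were 531 rises and 241 falls of that size. Calls of any size fell to 3955 without the first PSI-475 library and to 3712 without the third, with 2100 and 2015 falls. At 8-fold or more there were 14 rises and 2 falls. These folds were taken after adding 1 FPKM to each value, so the change of low loci is understated. Libraries of the 2 groups did not overlap at all 478 rises of 2-fold and at 209 of the 211 falls, beside 47.9% of all tested loci. These rises and falls were selected by call and size in the same libraries. That selection itself favours groups that do not overlap, so it is no separate support. A stricter reading asked that the weakest PSI-475 library be at least 2 times the strongest water library in FPKM, which 340 loci met. The converse, the weakest water library at least 2 times the strongest PSI-475 library, was met by 136 loci.

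Over the 6 leaf libraries, the median level was 14.4 FPKM for rises of 2-fold or more, 13.3 FPKM for falls of that size and 11.2 FPKM for all tested loci. Median recovered length was 1072.5 bases for rises and 1299 bases for falls, against 1626 bases over all tested loci. Near the limit of 2-fold, 88 called rises had a log2 change of 1 to 1.1 and 135 of 0.9 to 1. For falls these numbers were 70 and 88. Complete loss or gain of a transcript was rare. At 1 locus all 3 PSI-475 libraries had 0 fragments while each water library had at least 10, and the opposite was found at 0 loci.

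**Figure D1:**
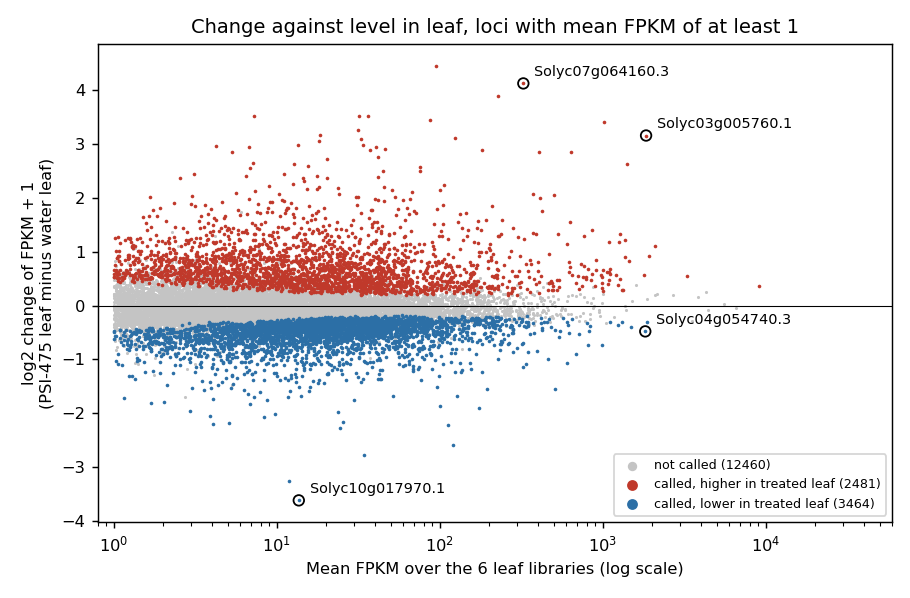
Each point is 1 of 18405 loci, by its mean FPKM over the 6 leaf libraries (log scale) and its log2 change of FPKM + 1, PSI-475 leaf minus water leaf; red and blue points were called by limma, and the 4 named loci are circled. The upper edge reaches past 4 on the log2 scale while 12 called falls lie at or below -2, against 67 called rises at or above 2.

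The 4 named loci were taken by rule, as the largest rise and fall on the log2 scale (5 FPKM or more on average) and the largest rise and fall in FPKM, among called loci of the tomato locus scheme whose libraries did not overlap. A numbered locus outside that scheme lies above them all in the plot of change against level. Solyc07g064160.3, on chromosome 7 by its identifier, had 598, 622 and 633 FPKM in PSI-475 leaves and 34.9, 35.8 and 33.5 FPKM in water leaves. Its groups were far apart and its replicates close together. The log2 change was 4.11 (SE 0.061, limma adjusted p = 3.92e-08), a 17.8-fold difference of means. By level it stood at rank 112 among tested loci in PSI-475 leaves and at rank 3864 in water leaves, resting on 19304 to 20822 fragments per PSI-475 library and 948 to 997 per water library.

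Solyc03g005760.1, on chromosome 3, had the largest rise in FPKM. It measured 3540, 3110 and 3320 FPKM in PSI-475 leaves and 344, 374 and 404 FPKM in water leaves. All PSI-475 libraries were above all water libraries by a wide margin. The difference of means was 2948 FPKM, the log2 change was 3.15 (SE 0.087, limma adjusted p = 7.72e-07) and the ratio of means was 8.89. It was the eighth most abundant tested locus in PSI-475 leaves (rank 8) and stood at rank 206 in water leaves.

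Solyc04g054740.3, on chromosome 4, had the largest fall in FPKM. It measured 1540, 1560 and 1470 FPKM in PSI-475 leaves and 2330, 2160 and 1890 FPKM in water leaves. The groups did not overlap, though the change was small in proportion. The PSI-475 mean was 0.715 of the water mean. Its log2 change was -0.48, with an SE of 0.092 and a limma adjusted p of 0.00601. In water leaves it was at rank 10 by level, and in PSI-475 leaves at rank 27.

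Solyc10g017970.1, a locus of 183 bases on chromosome 10, had the largest fall on the log2 scale. It had 0 fragments in all 3 PSI-475 leaf libraries and 2.23, 6.61 and 73.2 FPKM in water leaves. The water libraries were spread widely, and the third carried most of the mean. The log2 change was -3.61 (SE 0.96, limma adjusted p = 0.0226). With 3 fragments taken as the limit of a library at 0, PSI-475 leaves were at least 36.7-fold lower, and at least 5.93-fold lower without the third water library. The call was lost when any 1 PSI-475 library was left out (limma adjusted p = 0.0588 to 0.0641).

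**Figure D2:**
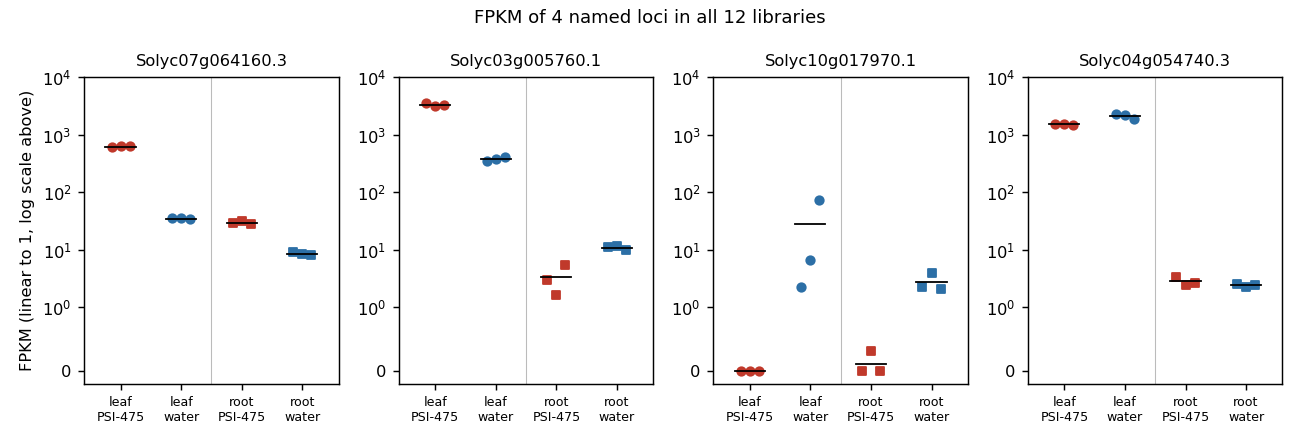
FPKM of the 4 named loci in each of the 12 libraries, PSI-475 in red and water in blue, leaf as circles and root as squares, with lines at group means; the axis is linear up to 1 and logarithmic above. Solyc07g064160.3 and Solyc03g005760.1 show PSI-475 leaves well above water leaves, whereas the water leaf values of Solyc10g017970.1 run from 2.23 to 73.2 FPKM.

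In root, the named loci did not follow leaf in a single way. Solyc07g064160.3 had 29.5, 30.9 and 28.3 FPKM in PSI-475 roots and 9.11, 8.27 and 8.01 FPKM in water roots, so it rose there too, with a log2 change of 1.69 and a limma adjusted p of 1.36e-07. Solyc03g005760.1 fell in root, with 3, 1.6 and 5.5 FPKM in PSI-475 roots against 11.1, 11.6 and 9.77 FPKM in water roots (log2 change -1.53, limma adjusted p = 0.00124). Its level in root was low in both groups. Solyc10g017970.1 averaged 0.106 ± 0.184 FPKM in PSI-475 roots and 2.72 ± 0.99 FPKM in water roots (SD, n = 3 each), also a fall (log2 change -1.73, limma adjusted p = 9.36e-05). Solyc04g054740.3 was near 2.83 ± 0.493 FPKM in PSI-475 roots and 2.42 ± 0.179 FPKM in water roots (SD, n = 3 each), with no call (limma adjusted p = 0.26).

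The FPKM gained in PSI-475 leaves was concentrated in few loci. Summed over called rises, the group means differed by 80324 FPKM, and over called falls by -50076 FPKM. Over loci not called the net difference was -10536 FPKM. FPKM need not sum alike in all libraries, so these values do not measure total RNA. The 10 loci with the largest gains made up 20% of the gain and the top 100 made up 57.1%. For the losses these shares were 8.59% and 31.1%. The 100 most abundant leaf loci held 19.1%, 17.7% and 18% of fragments in PSI-475 leaves and 15.2%, 15.2% and 15.9% in water leaves. The groups did not overlap. A 2-sided exact permutation test gave p = 0.1, and 3 against 3 cannot give less. Of those 100 loci, 46 rose and 11 fell, beside 13.5% and 18.8% of all tested loci. Rises of 2-fold or more numbered 10 among them, and falls of that size 1, beside 2.6% and 1.15% of all tested loci. These tallies depended on how the 100 loci were ranked: 53 rose and 8 fell when ranked in PSI-475 leaves alone, and 32 rose and 25 fell when ranked in water leaves alone, which favours loci that fell. The 100 most abundant loci of each library itself held 19.3%, 17.9% and 18.2% of fragments in PSI-475 leaves and 15.6%, 15.6% and 16.3% in water leaves, with the same exact permutation p of 0.1. These other rankings were chosen after seeing the data.

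The share of loci called higher was larger in each class of higher level, with level taken as the mean over all 6 leaf libraries. A rise in PSI-475 leaf thus itself moves a locus toward a higher class. On the deposited scale rises outnumbered falls below 3 FPKM (325 and 254) and above 300 FPKM, and falls outnumbered rises between, whereas with median-of-ratios scaling rises outnumbered falls in every class. Among loci with a mean of 10 to 30 FPKM, 12.8% rose and 22.8% fell. Between 300 and 1000 FPKM, 30.5% rose and 20.3% fell. Of the 49 loci with a mean of 1000 FPKM or more, 26 rose and 6 fell. Their log2 changes had a median of 0.36, against -0.088 over all tested loci, but a median of 0 with quantile normalization, where 16 rose and 13 fell. Without the third water library, 29 rose and 6 fell, but the 6 falls became 1 to 3 when any 1 PSI-475 library was left out and 1 with median-of-ratios scaling. Precision also differed by level: the median coefficient of variation between replicates at 1 to 3 FPKM was 17.9% in PSI-475 leaves and 22.1% in water leaves, and at 100 to 300 FPKM it was 4.72% in PSI-475 leaves and 8.23% in water leaves.

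The direction among abundant loci depended on how level and scale were set. With level taken from water leaves alone, 35 loci reached 1000 FPKM, of which 10 rose and 8 fell, a choice that favours loci that fell. The median of these 35 loci was 0.086 as deposited and -0.21 with quantile normalization. For the 49 loci the median was 0.45 with median-of-ratios scaling and 0.32 when rescaled to TPM.

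Among loci expressed mainly in leaf, rises outnumbered falls, and among loci expressed alike in both tissues falls outnumbered rises. Classes were set from the means over all 6 libraries of each tissue on the log2(FPKM + 1) scale, so a rise in PSI-475 leaf itself moves a locus toward the leaf-enriched class. Of 1932 leaf-enriched loci (at least 4-fold above root), 714 rose and 366 fell, or 37% and 18.9%, and 9.11% rose by 2-fold or more. Of 12099 loci that differed by less than 2-fold between tissues, 869 rose and 2302 fell, or 7.18% and 19%, and 1.02% rose by 2-fold or more. Of 792 root-enriched loci, 174 rose and 136 fell. Falls ran from 17.2% to 19% over these 3 classes, beside 18.8% of all tested loci, and rises from 7.18% to 37%, beside 13.5%. The differences between classes were not tested. The median log2 change was 0.13 for leaf-enriched and -0.12 for similar loci, and it kept those signs with TPM, median-of-ratios and quantile scaling. Without the third water library 742 leaf-enriched loci rose and 404 fell.

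Over classes of recovered length, rises ran from 10% to 15.7% and falls from 11.7% to 21.3%, beside 13.5% and 18.8% of all tested loci. Of 5195 loci with a recovered length of 2400 bases or more, 10% rose and 21.3% fell. Of 1616 loci of 300 to 600 bases, 15.7% rose and 15.1% fell. Among 516 numbered loci tested, 57 rose and 57 fell, or 11% each. Among 133 with non-coding RNA identifiers, 8 rose and 9 fell, or 6.02% and 6.77%. Of these, 7 rises and 5 falls were of 2-fold or more, or 5.26% and 3.76%, beside 2.6% and 1.15% of all tested loci.

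**Figure D3:**
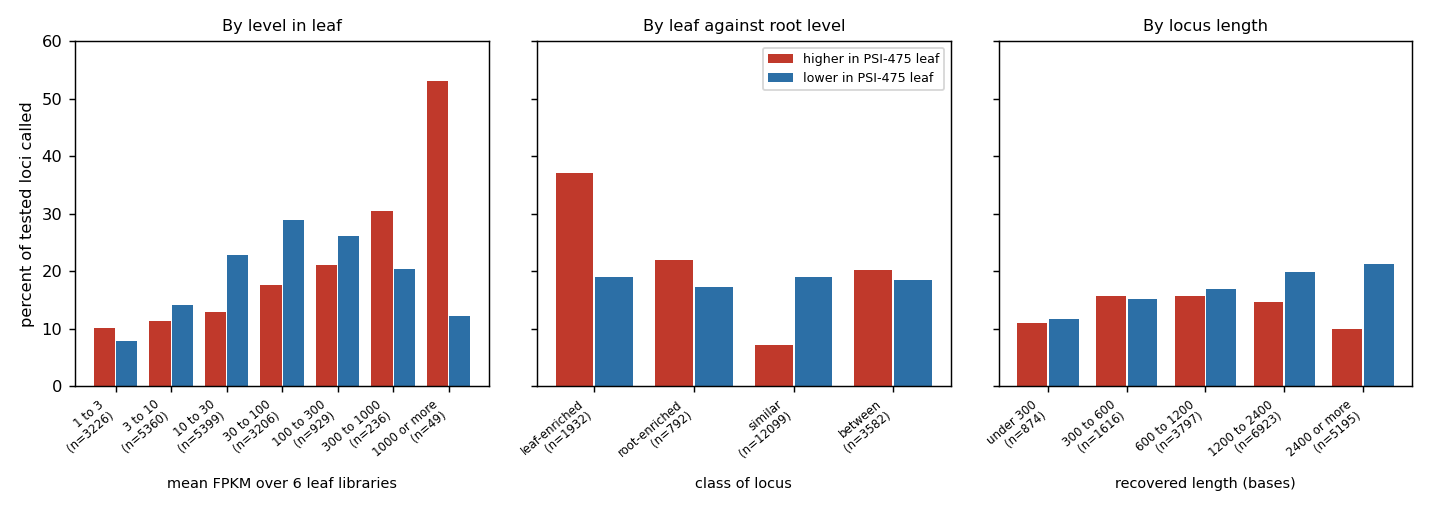
Percent of tested loci called higher (red) or lower (blue) in PSI-475 leaf, by mean leaf FPKM, by leaf against root level and by recovered length, with the number of loci in each class. Red bars grow with level to 53.1% at 1000 FPKM or more, and they differ more between tissue classes than blue bars do. Mean leaf FPKM includes the PSI-475 leaves, so a rise itself moves a locus toward a higher class.

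Neighbouring loci changed together at several places. Tested loci were put in identifier order, on the premise that tomato identifiers are numbered along each chromosome. That order was not checked against an annotation, and all values on neighbours and runs rest on it. Of 455 loci that rose by 2-fold or more and had a next tested locus, 43 were followed by another such rise, or 9.45%, beside 2.6% of all tested loci. Of 197 that fell by 2-fold or more, 16 were followed by another such fall, or 8.12%, beside 1.15%. Without the 10 loci of the run on chromosome 4, 7 of 187 were, or 3.74%. In all, 9 runs of at least 3 loci next to each other among those tested changed by 2-fold or more in 1 direction. They were found after the values had been seen and get no test of their own. Each member was selected as called and changed in the same libraries, so separation of the groups within runs is no separate support. The rises numbered 8 and the falls 1, and they held 39 loci. The rising runs on chromosomes 3, 9 and 11 had members under 1 FPKM in water leaves. Those members passed the filter only through PSI-475 leaves. In water leaves they averaged 0.21 FPKM on chromosome 3, 0.14 and 0.23 FPKM on chromosome 9 and 0.46 FPKM on chromosome 11. Without them these runs would fall short of 3 loci.

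The longest was a run of 10 loci on chromosome 4, all of which fell. Their summed level was 102.2, 83.4 and 83.8 FPKM in PSI-475 leaves and 243.2, 226.9 and 272.3 FPKM in water leaves. All PSI-475 libraries were below all water libraries, and the PSI-475 sum averaged 36.3% of the water sum. The log2 changes ran from -1.74 to -1.0 (largest limma adjusted p = 0.0296). The same recovered length, 309 bases, was found at 9 of the 10, and if these are near-identical copies their single values are uncertain, since counting could split reads among them. In root the run was low, summing to 27.1 ± 4.06 FPKM in PSI-475 roots and 5.32 ± 1.65 FPKM in water roots (SD, n = 3 each), and 2 of the 3 members tested there rose. Of all loci tested in root, 52% rose and 24.5% fell, which is the background for the root calls of every run.

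A run of 8 loci on chromosome 7 rose. It summed to 1730, 1640 and 1743 FPKM in PSI-475 leaves and 552.4, 530 and 612.2 FPKM in water leaves, a ratio of means of 3.02. The groups were well separated, and log2 changes ran from 1.31 to 2.97 (largest limma adjusted p = 0.0017). The 7 members tested in root all rose there, and the run summed to 202 ± 35.6 FPKM in PSI-475 roots and 33.6 ± 1.21 FPKM in water roots (SD, n = 3 each). Unlike the run on chromosome 4, its members had recovered lengths from 204 to 2155 bases.

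The steepest run was the 3 loci on chromosome 3 that include Solyc03g005760.1. It summed to 4013, 3511 and 3754 FPKM in PSI-475 leaves and 371, 401.8 and 433.2 FPKM in water leaves, a ratio of 9.35. In root it summed to 4.23 ± 1.7 FPKM in PSI-475 roots and 12.6 ± 0.381 FPKM in water roots (SD, n = 3 each), and the 1 member tested there fell. A run of 3 on chromosome 11 had 80.1, 69.2 and 76 FPKM in PSI-475 leaves and 9.73, 11.8 and 10 FPKM in water leaves, a ratio of 7.15. All 3 of its loci fell in root, to 42.1 ± 12.1 FPKM in PSI-475 roots, against 243 ± 5.25 FPKM in water roots (SD, n = 3 each). The sums of both runs were higher in PSI-475 leaf and lower in PSI-475 root than in water. Most of each leaf sum came from 1 locus. In PSI-475 leaves Solyc03g005760.1 made up 3321 of 3759 FPKM on chromosome 3, and 1 locus made up 66.6 of 75.1 FPKM on chromosome 11.

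The other rising runs held 3 loci each and had ratios of 2.07 to 3.6. On chromosome 6 the sums were 188.9, 191 and 188.3 FPKM in PSI-475 leaves and 58.9, 65 and 63.2 FPKM in water leaves. On chromosome 7 one run had 264.8, 228 and 252.4 FPKM in PSI-475 leaves and 79.5, 77 and 68.8 FPKM in water leaves, and the lowest had 35.6, 35.3 and 37.2 FPKM in PSI-475 leaves and 10.3, 9.67 and 10 FPKM in water leaves. The libraries of each group lay close together in these runs and the groups did not overlap. The run on chromosome 8 had 140.5, 106.1 and 124.1 FPKM in PSI-475 leaves and 39.5, 56.8 and 46.4 FPKM in water leaves, and all 3 of its loci fell in root. The run on chromosome 9 had 309.6, 251.9 and 275.8 FPKM in PSI-475 leaves and 136.1, 152.4 and 115.4 FPKM in water leaves, and all 3 of its loci rose in root. A rise in leaf was thus found beside either direction in root, where 52% of all tested loci rose and 24.5% fell. In PSI-475 leaves 1 locus made up 274 of 279 FPKM of the run on chromosome 9. In the higher of these runs on chromosome 7, 1 locus made up 224 of 248 FPKM. The largest locus made up 96.9 of 189 FPKM on chromosome 6, 69.7 of 124 FPKM on chromosome 8 and 14.2 of 36 FPKM in the lowest run. Recovered lengths also spanned narrow ranges in some rising runs. They ran from 569 to 628 bases on chromosome 8, 571 to 618 on chromosome 9 and 996 to 1190 on chromosome 11. Whether reads were shared among those members was not tested.

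**Figure D4:**
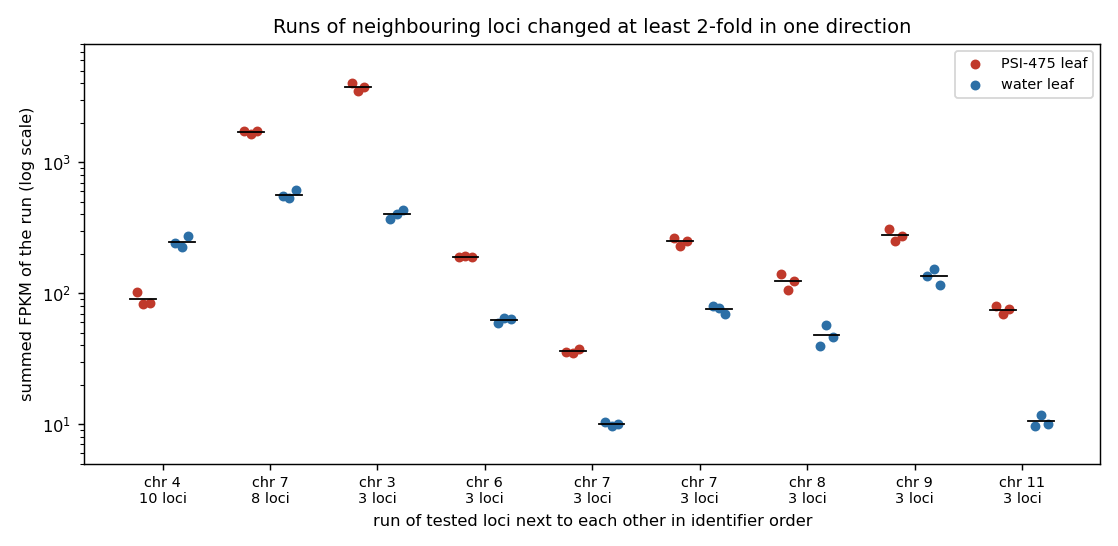
Summed FPKM (log scale) of each of 9 runs of loci next to each other in identifier order among those tested, in the 3 PSI-475 leaf libraries (red) and the 3 water leaf libraries (blue), with lines at group means. The 2 groups do not overlap in any run, which the choice of runs from these same libraries favours. The run of 10 loci on chromosome 4 is the one that is lower in PSI-475 leaf.

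Over the 12 numbered chromosomes, rises of 2-fold or more made up from 1.48% of tested loci on chromosome 11 to 3.89% on chromosome 6, beside 2.6% of all tested loci. Falls of that size ran from 0.723% on chromosome 9 to 1.65% on chromosome 4. Of the 24 on chromosome 4, 10 were the run described above.

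Loci that changed strongly in leaf did not share a direction in root, where other libraries were used. Of 478 rises of 2-fold or more in leaf, 328 were tested in root, and 46.6% of these rose and 36.6% fell there. Of the 211 falls, 153 were tested in root, and 54.9% rose and 29.4% fell. Among all 16272 leaf loci tested in root, 53.9% rose and 23.2% fell, and over all 18277 root loci 52% and 24.5%. The root calls are on the deposited scale alone. There the median root log2 change was 0.291 over the 16272 loci, 0.183 for the leaf rises and 0.406 for the leaf falls. Root calls thus stand on a shift toward rises over all loci, the cause of which was not tested. The differences from these backgrounds were not tested. Of 67 leaf rises of 4-fold or more, 38 were tested in root, where 16 rose and 13 fell.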

How the data were processed

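RNA from 30 mg of leaf was sequenced, per the labels' protocols. The deposited FPKM were made by the authors. Tools listed in the submitters' processing notes are DESeq2, fastp and featureCounts, with no versions. Not given in the sources used here are the aligner, the build, the annotation and whether counting used strand. Library totals, lengths and whole fragments were recovered from the digits of the FPKM (tolerance 0.001), and the fragments made up 99.9956% to 99.9963% of the leaf totals. Where the counts of 1 locus have a common divisor, its recovered length can come out too short. Fragments served for depth, shares and limma-voom, which called 6427 loci. For the main result, log2(FPKM + 1) of the 6 leaf libraries went into limma (version 3.58.1, R version 4.3.3), whose prior variance followed the mean level. Tests were 2-sided and adjusted after Benjamini and Hochberg over all loci tested. Root was fitted on its own 6, and the interaction on all 12. The procedure was tested on simulated fragments. Alternatives varied pseudocount, filter, scaling, trend, weights, test, libraries, replicate block and each replicate left out. Figures used matplotlib 3.10.9. The comparison, members, lists and classes were chosen with earlier results of these data known. With no descriptions, the rule for named loci allowed 2 rises and 2 falls. Classes by length and runs were chosen after seeing the data.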

Additional observations from a re-analysis of the deposited data

Results flagged for a closer look

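At 3 of the 4 named loci the spray effect in root differed from that in leaf, by a test of the difference itself. This was a limma interaction over 12 libraries, adjusted over 19324 loci, of which 67.4% passed. Passing at 3 of 4 loci is near that share. The loci were also chosen as extreme leaf changes in the same leaf libraries, which favours such a difference. The root effect minus the leaf effect was -4.68 on the log2 scale at Solyc03g005760.1 (SE 0.33, limma adjusted p = 1.31e-07). It was -2.42 at Solyc07g064160.3 (SE 0.082, limma adjusted p = 3.9e-10). It was 0.64 at Solyc04g054740.3 (SE 0.13, limma adjusted p = 0.00098), a call lost with median-of-ratios scaling. At Solyc10g017970.1 the difference was 1.88 and did not pass (SE 1.13, limma adjusted p = 0.159).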

How the results depend on the processing

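The number of called loci, 5945 as reported, was 3712 to 6519 with 1 library left out. Leaving out PSI-475 replicate 1 or 3 lowered it by over 1.5 times, to 3955 and 3712. With library weights 7713 loci were called, and with all 12 libraries in the fit 7735. Rises of at least 2-fold, 478 as reported, were 368 to 716 under the alternatives run. The 211 falls of at least 2-fold became 361 with a pseudocount of 0.1 and 369 with limma-voom on recovered fragments. The 26 rises at 1000 FPKM or more became 16 with quantile normalization, beside 13 falls. The 6 falls there became 1 with the replicate block and 1 with no filter on low values. Called falls, 3464 as reported, were 2279 with median-of-ratios scaling and 2100 and 2015 without PSI-475 replicate 1 and 3. The cause of these shifts was not tested. The share of fragments held by the 100 most abundant loci was 2.84 percentage points higher in PSI-475 leaves as reported, and 1.22 when ranked in water leaves alone. The interaction at Solyc04g054740.3 was 0.32 with median-of-ratios scaling and no longer passed (limma adjusted p = 0.051). That at Solyc10g017970.1 ran from 0.58 to 2.84 with 1 leaf library left out, and passed without water leaf replicate 1 (limma adjusted p = 0.0157). The call on Solyc10g017970.1 was also lost with limma-voom (adjusted p = 0.0721). Deviations of samples with the same replicate number correlated at -0.237, 0.114 and -0.105. Over all pairs of a PSI-475 and a water library these correlations ran from -0.25 to 0.319. With 3 libraries per group, they cannot show whether the replicate numbers pair the leaves. With the replicate block 4494 loci were called. All 9 runs kept every member called under most alternatives, among them without PSI-475 replicate 1. Only 8 did when any other single leaf library was left out or with no filter. At a minimum of 5 FPKM, where members dropped out, 4 were left.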
